A study of Mus musculus with 6 samples.

Results

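Male gonads of E14.5 mouse embryos that lack endogenous *Nanos2* but carry a truncated *Nanos2* transgene (Nanos2-/-_Tg+, 2 arrays) were compared with gonads that keep 1 working copy of the gene (Nanos2+/-, 2 arrays). The transgene, 3×FLAG-Nanos2-ΔN10, codes for NANOS2 without its N-terminal residues, carries a FLAG tag and is driven by sequence upstream of *Nanos2*, and 1 transgenic line was used. The null allele carries *LacZ* in place of *Nanos2*, and all animals were of a mixed ICR and N2 background. Each array received Cy3-labelled cRNA made from 0.2 µg of total RNA of dissected gonads, so that germ cells and all somatic cells were measured together. In such bulk tissue fewer cells of a type and less RNA per cell cannot be told apart. The series holds 6 arrays, of which 2 further ones come from Nanos2-/- gonads without the transgene. The submitters call the arrays of a genotype biological replicates without saying whether each came from a single embryo or a pool, and p-values refer to the spread between these arrays.

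Probes were kept when their spot was well above background on all 4 arrays, which left 25085 of the 41174 probes. Of these, 17655 could be matched to 12501 genes. Values are log2 of the processed signal after scaling every array to the same median, and a difference is Nanos2-/-_Tg+ minus Nanos2+/- on that scale. The arrays were similar in quality, with 64.1% to 65.7% of probes above background and scaling factors of 0.976 to 1.28, and no spot was saturated. Arrays of Nanos2+/- differed from each other by a median of 0.32 and those of Nanos2-/-_Tg+ by 0.17. The 2 Nanos2+/- arrays had been hybridized on a slide of their own, apart from the other 4 arrays of the series, so the slide and the genotype cannot be told apart in any difference given here. Values of the Nanos2-/- arrays, which shared the slide of the Nanos2-/-_Tg+ arrays, are given where a result turns on them.

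NANOS2 is an RNA-binding protein of the male fetal germ line. It is known to bring the CCR4-NOT complex, which removes poly(A) tails, to its target mRNAs, and its loss lets male germ cells enter meiosis and lose their male differentiation. The truncated protein lacks the stretch that contacts this complex. In the male gonad, meiosis is normally held back by CYP26B1, the Sertoli cell enzyme that degrades retinoic acid, while retinoic acid drives *Stra8* and with it meiotic entry in the ovary. The comparison asks which parts of the expression pattern of a *Nanos2*-expressing gonad are missing when only the truncated protein is made.

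Few probes passed the test: *Kctd14*, *Cfap52* and an unmatched probe fell, and a further unmatched probe rose. A probe was called when limma, fitted over all 6 arrays, gave a Benjamini-Hochberg adjusted p under 0.05 and the difference was at least 2-fold. By this rule 1 probe rose (0.00399% of those tested) and 3 fell (0.012%). Without adjustment, 1189 probes were higher and 1613 lower at p under 0.05, of which 178 and 252 differed at least 2-fold. The median difference over all probes kept was -0.01 and the median standard error 0.21. The number of calls depended on which arrays set the spread: with only the 4 arrays compared, 118 probes were called, 47 higher (0.187%) and 71 lower (0.283%), and these held all 4 probes called over 6 arrays. The paper counts probes by a t-test with a 2-fold limit. An equal-variance t-test run here on the probes kept listed 53 higher (0.211%) and 84 lower (0.335%) with that limit and without adjustment. After Benjamini-Hochberg adjustment it listed 0, and the smallest adjusted value was 0.123. The paper's count rests on a different set of probes and is not compared here. For a single probe an exact permutation test of 2 arrays against 2 cannot give a p below 0.333.

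**Figure D1:**
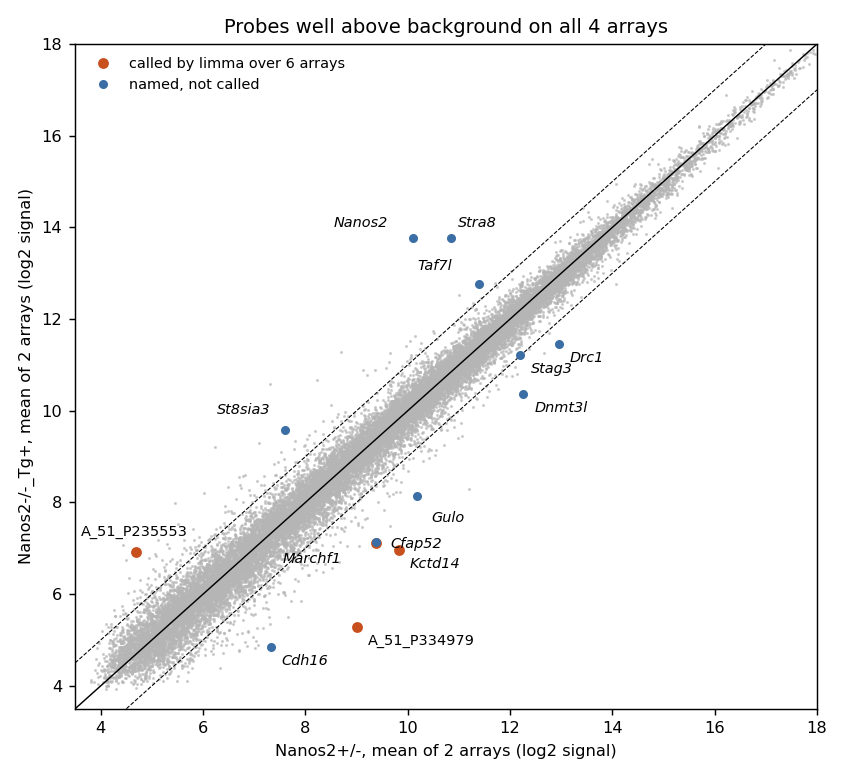
Mean log2 signal of the 2 Nanos2+/- arrays (x axis) against that of the 2 Nanos2-/-_Tg+ arrays (y axis) for the 25085 probes kept, with the line of equal signal and dashed lines at 2-fold. The 4 called probes are orange and further probes described in the text are blue. *Nanos2* lies farthest above the line, at a difference of 3.67, and the called probe A_51_P334979 farthest below it, at -3.73.

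The *Nanos2* probe itself showed the label of each genotype. Its log2 signal was 9.42 and 10.78 on the Nanos2+/- arrays and 13.29 and 14.25 on the Nanos2-/-_Tg+ arrays. The genotypes did not overlap, and both Nanos2-/- arrays stood at the floor value of 2.32. The difference from Nanos2+/- was 3.67 (SE 0.44), or 12.7-fold, with a limma adjusted p of 0.0648 over 6 arrays and 0.000904 over the 4 arrays. The signal of the transgenic gonads thus lay above that of gonads with 1 working copy of the gene. Against Nanos2-/- the same probe was called (difference from the floor, limma adjusted p = 3.8e-05).

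The probe with the lowest p has no gene match here. A_51_P334979 measured 9.05 and 8.98 in Nanos2+/- and 5.29 and 5.27 in Nanos2-/-_Tg+. Both Nanos2-/-_Tg+ arrays lay far below both Nanos2+/- arrays, and the Nanos2-/- arrays, at 5.60 and 5.19, were as low. This probe fell by 3.73 (SE 0.20, limma adjusted p = 0.000742), or 13.3-fold. A second unmatched probe, A_51_P235553, was the only one that rose by the rule over 6 arrays. It measured 4.65 and 4.71 in Nanos2+/- and 6.92 and 6.93 in Nanos2-/-_Tg+, a rise of 2.25 (SE 0.19, limma adjusted p = 0.0137). The Nanos2-/- arrays lay at 6.42 and 6.67, again on the side of the other slide.

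*Kctd14*, which codes for a protein with a BTB-like tetramerisation domain, fell. Its signal was 9.46 and 10.18 in Nanos2+/- and 7.08 and 6.85 in Nanos2-/-_Tg+, a fall of 7.25-fold (log2 difference -2.86, SE 0.26, limma adjusted p = 0.0182). The Nanos2-/- arrays, at 10.13 and 9.90, were as high as Nanos2+/-, so the low signal was seen in the transgenic gonads alone. The difference between Nanos2-/-_Tg+ and Nanos2-/-, whose arrays lay on the same slide, was -3.05 (limma adjusted p = 0.0158). Apart from *Nanos2*, no other probe was called between these genotypes (2 of 25085, 0.00797%), with 609 probes at an unadjusted p under 0.05, 79 of them at least 2-fold, and 0 by the adjusted t-test.

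*Cfap52*, a component of the microtubules in motile cilia and flagella, fell as well. It measured 9.23 and 9.54 in Nanos2+/- and 6.94 and 7.29 in Nanos2-/-_Tg+, a fall of 4.81-fold (log2 difference -2.27, SE 0.23, limma adjusted p = 0.0395). The Nanos2-/- arrays were intermediate at 8.33 and 7.89. The calls of *Cfap52* and A_51_P235553 were lost without either Nanos2+/- array (limma adjusted p = 0.271 and 0.0754 for *Cfap52*, 0.167 and 0.054 for A_51_P235553), and that of *Kctd14* without Nanos2+/- replicate 2 (limma adjusted p = 0.054).

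Among matched genes at an unadjusted p under 0.05, without overlap between genotypes and with at least median brightness, a gene of meiotic entry had the largest positive difference after *Nanos2*. *Stra8*, the retinoic acid-responsive gene needed for premeiotic DNA replication, measured 10.19 and 11.48 in Nanos2+/- and 14.48 and 13.04 in Nanos2-/-_Tg+. The genotypes did not overlap, and the Nanos2-/- arrays, at 12.46 and 13.44, also lay above Nanos2+/-. The difference was 2.93 (SE 0.55), with a limma adjusted p of 0.129 over 6 arrays and 0.0109 over the 4 arrays. The bases upstream of the *Stra8* start are shown because the gene is the known target of retinoic acid in this tissue. In the RefSeq sequence of build GRCm38.p6 (chr6:34920698-34920947, plus strand) the hexamer AGGTCA, to which many nuclear receptors including those for retinoic acid bind, occurs at 2 places, marked in capitals.

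Stra8: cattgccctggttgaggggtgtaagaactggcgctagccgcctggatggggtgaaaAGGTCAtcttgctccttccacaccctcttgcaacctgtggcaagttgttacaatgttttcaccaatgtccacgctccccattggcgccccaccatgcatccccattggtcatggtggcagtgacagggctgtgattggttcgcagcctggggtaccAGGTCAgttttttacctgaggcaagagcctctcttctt

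The hexamer was searched on both strands (AGGTCA or TGACCT) in the 250 bases upstream of each gene start, with no other motif. It was present in 4260 of 27025 genes (15.8%), in 3 of the 15 meiosis genes with a promoter sequence and in 3 of 13 such genes among the 15 with the largest positive differences at an unadjusted p under 0.05. None was found in this window for *Sycp1*, *Rec8* or *Taf7l*.

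*Taf7l*, a germ cell variant of a TFIID subunit, measured 11.04 and 11.72 in Nanos2+/- and 13.16 and 12.37 in Nanos2-/-_Tg+ (difference 1.38, SE 0.31). Its second probe differed by 1.44, and neither passed (limma adjusted p = 0.169 and 0.134). *Rec8*, the meiotic cohesin subunit, measured 11.09 and 11.45 against 12.41 and 12.30, with differences of 1.09 and 1.00 for its 2 probes. *Sycp1*, which forms the transverse filaments of the synaptonemal complex, measured 9.66 and 10.33 against 11.17 and 10.98 (difference 1.08). In all of these every Nanos2-/-_Tg+ array lay above every Nanos2+/- array. *Sycp3*, a component of the chromosome axis, was closer, at 9.97 and 10.69 against 11.14 and 10.85 (difference 0.67, limma adjusted p = 0.439). *Dmc1*, the meiotic recombinase, was at 4.27 and 4.30 in Nanos2+/- but at 6.71 and 4.33 in Nanos2-/-_Tg+, so its difference of 1.24 came from 1 array.

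Some other members of the meiotic programme lay on the opposite side or near 0. *Stag3*, a second meiotic cohesin subunit, measured 12.16 and 12.22 in Nanos2+/- and 11.24 and 11.21 in Nanos2-/-_Tg+ (difference -0.96, SE 0.25, limma adjusted p = 0.199). *Tex12*, of the central element of the synaptonemal complex, was lower by both of its probes (-0.57 and -0.55). The recombination genes *Spo11*, *Msh5* and *Brca2* differed by -0.01, 0.09 and 0.03. *Msh4*, also of recombination, was higher by 0.68. It was dim, at 5.81 and 5.07 in Nanos2+/- and 6.42 and 5.81 in Nanos2-/-_Tg+. Of 25 meiosis genes listed, 18 had a probe and 17 were kept. Their median difference was 0.23, with 6 higher and 2 lower at an unadjusted p under 0.05 and 0 called. Over all 12501 genes 4.14% were higher and 5.94% lower by that measure, and the counts of every list below are to be read against these shares. Arrays did not overlap for 7 meiosis genes higher and 2 lower, against 17% and 20.7% of all genes. The median lay between 0.05 and 0.31 when each array of the 4 was left out, while the median over all probes moved to -0.12 without Nanos2+/- replicate 1 and 0.11 without replicate 2.

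**Figure D2:**
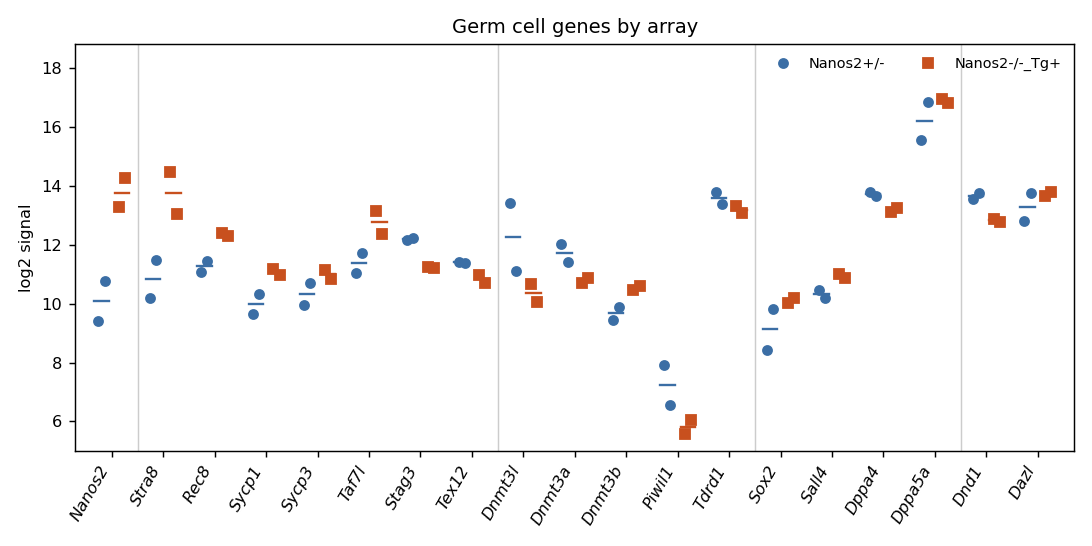
Log2 signal (y axis) of germ cell genes on each of the 2 Nanos2+/- arrays (blue circles) and 2 Nanos2-/-_Tg+ arrays (orange squares), with bars at the mean of each genotype and grey lines between *Nanos2*, meiotic, male-type, PGC and general germ cell genes. The *Stra8* arrays lie at 10.19 and 11.48 against 14.48 and 13.04, while *Dnmt3l* lies at 13.40 and 11.12 against 10.66 and 10.06.

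Most enzymes and receptors of retinoic acid signalling differed little, with a few on the higher side. *Cyp26b1*, at 13.43 and 13.74 in Nanos2+/- and 13.42 and 13.62 in Nanos2-/-_Tg+, overlapped between genotypes (difference -0.06). The retinaldehyde dehydrogenases *Aldh1a1*, *Aldh1a2* and *Aldh1a3* lay within 0.10 of 0. *Rarg*, the retinoic acid receptor gamma, measured 7.42 and 7.82 against 8.59 and 8.35 (difference 0.85, and 0.82 by its other probe). *Rdh10*, which oxidises retinol to retinaldehyde, was higher by 0.71 and 0.76 in its 2 probes. Neither passed (smallest limma adjusted p = 0.199). Of 19 genes listed, 17 were kept, with a median of 0.02, 3 higher and 1 lower at an unadjusted p under 0.05 and 0 called. Over all genes the shares were 4.14% higher and 5.94% lower. The 3 higher ones were *Rarg*, *Rdh10* and *Stra6*, the last at 7.83 and 7.95 against 8.27 and 8.49. The lower one was *Crabp1*, a binding protein for cellular retinoic acid, at 7.90 and 8.03 against 7.60 and 7.24.

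Among genes of male germ cell differentiation, several gave lower values. *Dnmt3l*, the cofactor of de novo DNA methylation in male germ cells, measured 13.40 and 11.12 in Nanos2+/- and 10.66 and 10.06 in Nanos2-/-_Tg+. All Nanos2-/-_Tg+ values lay below, but the Nanos2+/- arrays themselves lay far apart, and the difference of -1.90 (SE 0.60, limma adjusted p = 0.275) became -0.75 without Nanos2+/- replicate 1 and -3.04 without replicate 2. The Nanos2-/- arrays were at 10.09 and 9.99. *Piwil1*, a piRNA-binding Argonaute protein, measured 7.92 and 6.55 against 5.58 and 6.06 (difference -1.42, limma adjusted p = 0.218). *Tdrd1*, a Tudor protein of the piRNA pathway, measured 13.80 and 13.39 against 13.31 and 13.06 (difference -0.41, and -0.63 by its other probe).

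The de novo methyltransferases gave mixed values. *Dnmt3a* measured 12.01 and 11.41 against 10.70 and 10.87 with its brightest probe (difference -0.92), whereas its other probes differed by 0.04 and 0.23. *Dnmt3b* lay on the higher side, at 9.45 and 9.88 against 10.48 and 10.60 (difference 0.87, limma adjusted p = 0.272). Other piRNA genes were close to 0, with *Piwil2* at 0.10, *Mov10l1* at 0.03 and *Mael* at -0.09. Of 19 male-type genes listed, *Nanos2* among them, 12 were kept with a median of -0.10, 2 higher and 3 lower at an unadjusted p under 0.05 and 0 called. Without Nanos2+/- replicate 1 the median was 0.05.

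Genes of primordial germ cells and pluripotency had a median of 0.16 over 18 of 19 members, with 2 higher, 1 lower and 0 called. *Sox2*, a pluripotency transcription factor, measured 8.43 and 9.83 in Nanos2+/- and 10.03 and 10.20 in Nanos2-/-_Tg+ (difference 0.98, 0.28 without Nanos2+/- replicate 1, limma adjusted p = 0.395). *Dppa5a* measured 15.57 and 16.86 against 16.95 and 16.81, and *Dppa3* 14.86 and 15.95 against 15.34 and 15.93, so that both overlapped between genotypes. *Sall4* differed by 0.61 and by 0.05 in its other probe. *Dppa4* was the lower member, at 13.80 and 13.66 against 13.10 and 13.25. *Pou5f1*, *Nanog* and *Kit* differed by 0.17, 0.14 and 0.12. The median of the list was -0.34 without Nanos2+/- replicate 1, -0.18 without Nanos2-/-_Tg+ replicate 2 and 0.47 without Nanos2+/- replicate 2, and no direction is given for it.

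Germ cell markers taken as a list did not separate the genotypes. *Sycp3*, *Dppa3*, *Pou5f1* and *Mael* are also counted in the lists above, so this list does not measure germ cell number apart from those genes. The mean log2 signal of the 11 of 13 markers kept was 12.54 and 13.05 in Nanos2+/- and 12.81 and 12.89 in Nanos2-/-_Tg+, with a median difference of 0.05. *Dazl*, an RNA-binding protein of germ cells, measured 12.80 and 13.74 against 13.67 and 13.78. *Dnd1*, another germ cell RNA-binding protein, was lower at 13.54 and 13.76 against 12.88 and 12.79 (difference -0.82, limma adjusted p = 0.177). *Nanos3*, the family member of earlier germ cells, measured 9.82 and 10.96 against 11.27 and 11.01 (difference 0.75, limma adjusted p = 0.473). *Nanos1* was not above background in Nanos2+/- and was at least 2.11-fold higher in Nanos2-/-_Tg+ (4.80 against 2.55 in the mean). It was above background on both Nanos2-/- arrays.

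Genes of motile cilia held several of the large negative differences. Motile cilia and sperm tails share an axoneme of dynein arms, radial spokes and nexin links. Besides *Cfap52*, *Tekt1*, a filament protein inside the axonemal microtubules, measured 11.91 and 11.62 in Nanos2+/- and 10.75 and 10.22 in Nanos2-/-_Tg+. Its 2 probes differed by -1.28 and -1.41 (limma adjusted p = 0.125 and 0.127, and 0.0475 for the first over the 4 arrays). *Drc1*, of the nexin-dynein regulatory complex, measured 13.80 and 12.10 against 11.93 and 11.00 (difference -1.49, -0.63 without Nanos2+/- replicate 1). *Zmynd10*, which assembles dynein arms, measured 7.40 and 5.39 against 5.14 and 4.30 (difference -1.67, -0.67 without Nanos2+/- replicate 1). No overlap between genotypes was seen in these genes.

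*Cfap53*, needed for cilia of the embryonic node, was lower by 1.21 on the log2 scale, at 7.28 and 6.36 against 5.78 and 5.44. The radial spoke genes *Rsph1* and *Rsph9* each differed by -0.66. *Foxj1*, the transcription factor that switches on motile cilium genes, lay on the other side, at 5.56 and 6.11 in Nanos2+/- and 6.79 and 7.28 in Nanos2-/-_Tg+ (difference 1.20, limma adjusted p = 0.154). *Spag16*, at 4.03 and 5.28 against 6.45 and 4.88, and *Rfx3*, at 5.64 and 6.22 against 6.65 and 6.19, overlapped between genotypes and did not pass (limma adjusted p = 0.515 and 0.529). Of 30 cilium genes listed, 20 had a probe and 18 were kept, with a median of -0.27, 1 higher and 7 lower at an unadjusted p under 0.05 and 1 called. Over all genes the shares were 4.14% higher and 5.94% lower. The median stayed below 0 when each array was left out, from -0.48 to -0.08. *Pifo*, a further gene of ciliary signalling, was at the floor on both Nanos2-/-_Tg+ arrays and at least 2.73-fold lower there (5.24 against 2.32 in the mean).

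Markers of the mesonephros, the tubular tissue attached to the gonad, were dim. Of 13 markers, 7 were kept, with means of 6.20 and 6.86 in Nanos2+/- and 6.02 and 6.45 in Nanos2-/-_Tg+, and *Pax2*, *Ret* and *Calb1* were not above background on all 4 arrays. *Cdh16*, a cadherin of kidney and duct epithelium, measured 6.05 and 8.60 against 4.57 and 5.12 (difference -2.48, SE 0.99, limma adjusted p = 0.398, and -1.21 without Nanos2+/- replicate 2). *Emx2*, a transcription factor of the same tissue, was higher by 0.60, and by 0.22 in its other probe. The part of mesonephric tissue in the cilium values was not tested.

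**Figure D3:**
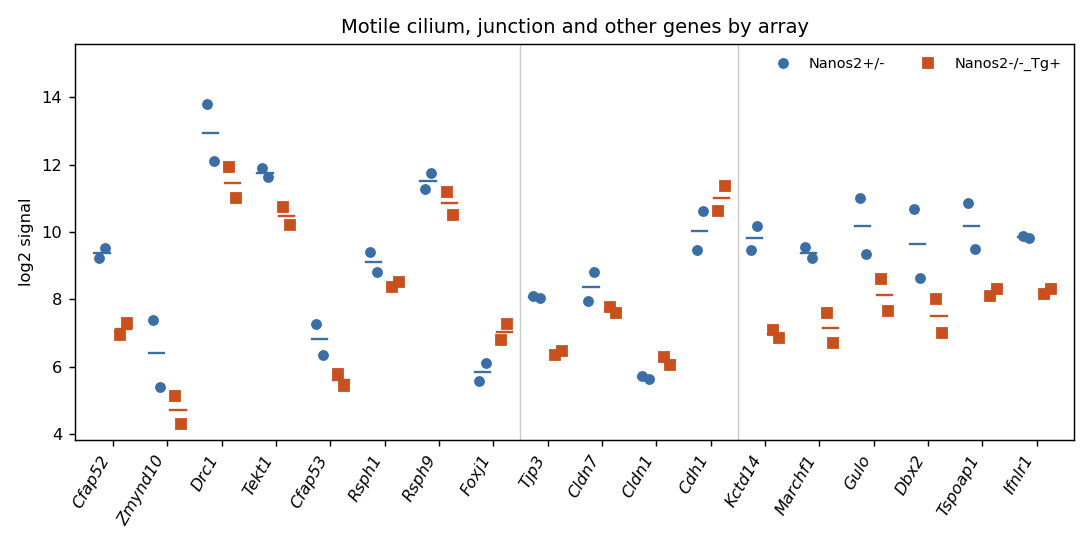
Log2 signal (y axis) on each of the 2 Nanos2+/- arrays (blue circles) and 2 Nanos2-/-_Tg+ arrays (orange squares) for genes of motile cilia, epithelial junctions and other genes with large differences, separated by grey lines, with bars at the genotype mean. *Cfap52* lies at 9.23 and 9.54 against 6.94 and 7.29, while *Foxj1* lies at 5.56 and 6.11 against 6.79 and 7.28.

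Epithelial junction genes were divided. *Tjp3*, a scaffold protein of tight junctions, measured 8.10 and 8.03 in Nanos2+/- and 6.36 and 6.48 in Nanos2-/-_Tg+. Its difference of -1.65 (SE 0.18) narrowly missed the limit over 6 arrays (limma adjusted p = 0.0529) and passed over the 4 arrays (0.00954). *Cldn7*, a claudin, differed by -0.69, and *Marveld3*, another tight junction protein, was at least 4.91-fold lower (6.08 against 3.43 in the mean). *Cdh1*, the epithelial cadherin also made by germ cells, measured 9.46 and 10.61 against 10.62 and 11.38 (difference 0.97, limma adjusted p = 0.394). Of 21 listed, 17 were kept, with a median of -0.13, 2 higher, 2 lower and 0 called.

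Among the remaining genes with the largest positive differences by the same criteria, several had more than 1 probe with the same direction. *St8sia3*, a sialyltransferase of neural tissue, measured 7.27 and 7.93 in Nanos2+/- and 9.89 and 9.26 in Nanos2-/-_Tg+, and its 2 probes differed by 1.98 and 2.20. *Aurkc*, the Aurora kinase of meiotic divisions, measured 9.66 and 10.63 against 11.77 and 11.48, with 1.48 and 1.26. *Irx2*, an Iroquois homeobox factor, was below the brightness limit and is named because its 2 probes changed alike. It measured 6.27 and 6.59 against 8.13 and 7.70, with 1.48 and 1.39. For these the limma adjusted p over the 4 arrays was 0.0109, 0.0475 and 0.0249, and over 6 arrays none passed. *Efhc2*, an EF-hand protein of axonemal microtubules, differed by 1.24 and 1.34. *Spic*, an Ets family transcription factor, differed by 1.35 and 1.42, the first becoming 0.77 without Nanos2+/- replicate 1.

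*Ptbp2*, a splicing regulator of neurons and germ cells, measured 10.11 and 10.40 against 11.36 and 11.60 (difference 1.23, limma adjusted p = 0.102 over 6 arrays and 0.0449 over the 4 arrays). *Fmr1nb*, known from testis and tumours, differed by 1.57, *Nphs1*, which codes for nephrin, by 1.53 and the interferon-induced *Oasl2* by 1.45. The gene model *Gm5128* differed by 1.60, *Asb9* by 1.51, the GTPase gene *Rab7b* by 1.47 and the adhesion gene *Icam5* by 1.40. Without Nanos2+/- replicate 1 the differences of *Asb9* and *Icam5* became 0.62 and 0.72, and those of *Gm5128* and *Rab7b* 1.29 and 1.45. In each gene of this paragraph the 2 Nanos2-/-_Tg+ arrays lay above the 2 Nanos2+/- arrays, as the criteria by which these genes were chosen required. Only *Rab7b* and *Asb9* differed from Nanos2-/- by 0.90 or more, at 1.00 and 0.90, and neither passed that test (limma adjusted p = 1).

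Of the genes with the largest negative differences by these criteria, *Marchf1*, a ubiquitin ligase acting on MHC class II, measured 9.55 and 9.21 in Nanos2+/- and 7.58 and 6.71 in Nanos2-/-_Tg+ (difference -2.24, limma adjusted p = 0.168 over 6 arrays and 0.00525 over the 4 arrays). *Ifnlr1*, a receptor chain for type III interferon, was tight within genotypes, at 9.88 and 9.82 against 8.17 and 8.29 (difference -1.62, limma adjusted p = 0.0648 and 0.0109). *Il1r2*, the decoy receptor for interleukin 1, was below the brightness limit and is named because its 2 probes changed alike, by -1.54 and -1.87.

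Others varied more between the Nanos2+/- arrays. *Gulo*, the last enzyme of vitamin C synthesis, measured 11.00 and 9.35 against 8.61 and 7.66, with -2.04 and -1.88 in its 2 probes. *Dbx2*, a homeobox gene, measured 10.69 and 8.63 against 8.0 and 6.99 (difference -2.16, and -1.13 without Nanos2+/- replicate 1). *Tspoap1* differed by -1.98, the adaptor gene *Grb7* by -1.70, the phosphatase gene *Dusp26* by -1.61 and the arginine deiminase gene *Padi3* by -1.58. *Ldhc*, the lactate dehydrogenase of male germ cells, measured 11.34 and 10.09 against 9.35 and 9.14 (difference -1.47). *Tatdn2* differed by -1.54 through 1 array, at 9.72 and 9.71 against 7.02 and 9.34, and the interferon-induced *Ifi27l2a* by -1.46 and -1.55. Over the whole set, 14 of 4179 genes with several probes had all of them at least 2-fold apart in 1 direction, 9 higher and 5 lower.

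Listed components of CCR4-NOT, the complex that the missing N terminus would contact, and of mRNA decay gave mostly small differences by their brightest probes. *Cnot1*, the subunit that the paper names as the direct partner of NANOS2, was not on the list. Of 26 listed, 25 were kept, between -0.64 and 0.31, with a median of 0.11, 1 lower at an unadjusted p under 0.05 and 0 called. The lower one was *Ddx6*, a helicase of P-bodies, at 8.83 and 9.28 against 8.36 and 8.48. *Cnot3*, a non-catalytic subunit, gave lower values with all 3 of its probes (-0.40, -0.73 and -0.45). The probe at -0.73, dimmer and outside the count above, had an unadjusted limma p of 0.00413. The deadenylase genes *Cnot6*, *Cnot6l*, *Cnot7* and *Cnot8* differed by 0.19, 0.11, 0.20 and -0.18. The median was -0.08 without Nanos2+/- replicate 1.

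Nodal and activin signalling gave a wide but overlapping range in 1 target. *Lefty1*, a Nodal inhibitor and target, measured 7.17 and 10.10 in Nanos2+/- and 9.26 and 10.59 in Nanos2-/-_Tg+. Nanos2+/- replicate 1 was lowest, and without it the difference of 1.29 became -0.17. *Fst*, the activin antagonist follistatin, measured 6.60 and 6.48 against 5.85 and 5.33 (difference -0.95, limma adjusted p = 0.176). Of 16 listed, 14 were kept with a median of -0.04, 0 higher, 1 lower and 0 called.

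Among genes of cell death and division, single genes stood apart from lists near 0. *Pmaip1*, a pro-apoptotic BH3-only gene, measured 11.40 and 12.64 against 12.59 and 13.53, and *Fas*, a death receptor, 6.80 and 6.10 against 6.96 and 7.11 (differences 1.03 and 0.59). These were the 2 higher genes of 21 apoptosis genes kept of 22, whose median was -0.02. In 23 of 24 genes of mitosis and replication the median was -0.08, with *Cdkn1b*, the cell cycle inhibitor p27, lowest at 6.20 and 6.22 against 5.69 and 5.71. Imprinted genes (19 of 22 kept) had a median of 0.04 with 0 at an unadjusted p under 0.05. Of 14 Rhox homeobox genes 5 were kept, and *Rhox3a* measured 6.26 and 6.76 against 7.88 and 6.96. No gene of these lists was called.

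**Figure D4:**
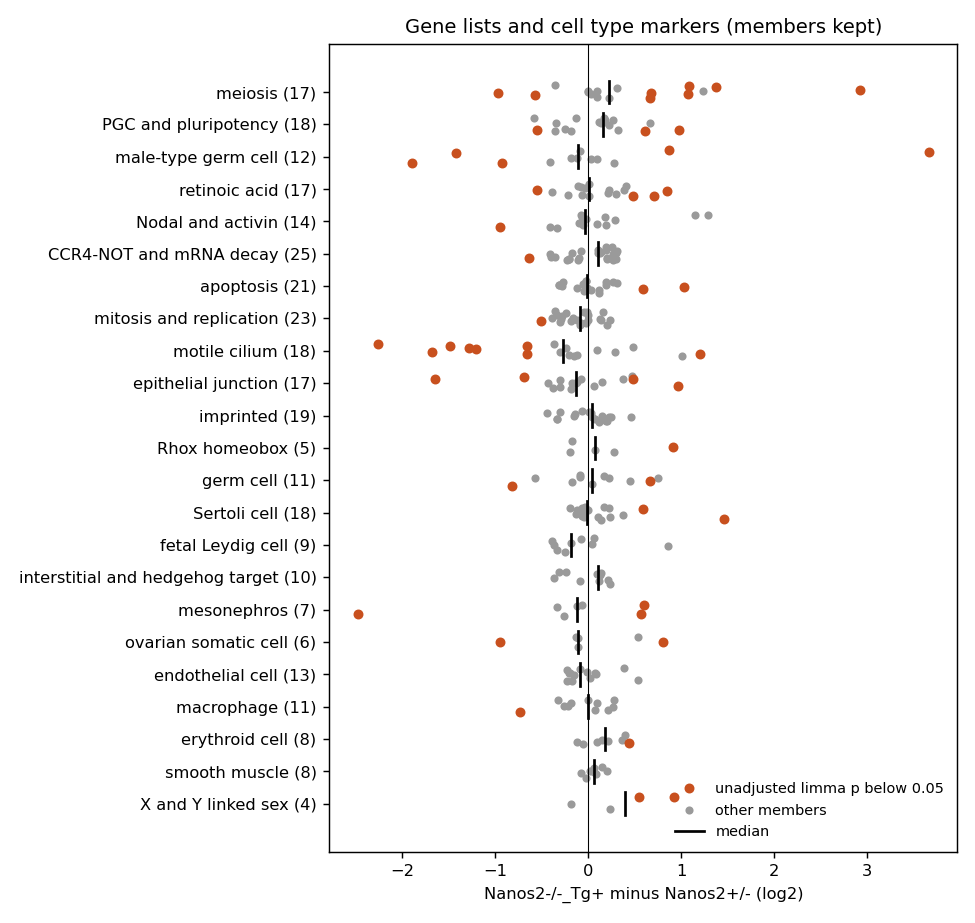
Difference between Nanos2-/-_Tg+ and Nanos2+/- (x axis, log2) of every kept member of each gene and marker list (y axis, number kept in parentheses), with members at an unadjusted limma p under 0.05 in orange, the others in grey and the list median as a black bar. The medians lie between -0.27 for motile cilium and 0.40 for X and Y linked genes, the latter over 4 genes.

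The marker lists of somatic and blood cells had medians between -0.19 (fetal Leydig) and 0.18 (erythroid). The 18 of 19 Sertoli markers kept lay between -0.20 and 1.46 with a median of -0.01, with 2 higher and 0 lower at an unadjusted p under 0.05. Their mean signal was 11.48 and 11.59 in Nanos2+/- and 11.66 and 11.70 in Nanos2-/-_Tg+, without overlap. *Sox9* and *Amh*, the defining Sertoli genes, differed by 0.00 and -0.07, and *Fgf9*, the growth factor that promotes male germ cell fate, by -0.03. *Dmrt1*, a transcription factor of Sertoli and germ cells, was 1 of the 2 higher genes, at 7.44 and 7.32 in Nanos2+/- and 8.62 and 9.06 in Nanos2-/-_Tg+ (difference 1.46, SE 0.29, limma adjusted p = 0.141 over 6 arrays and 0.0248 over the 4 arrays). The other was *Cldn11*, a tight junction protein of Sertoli cells, at 10.34 and 10.96 against 11.21 and 11.28 (difference 0.59, limma adjusted p = 0.391). *Foxl2*, the defining granulosa cell gene, was not above background on all 4 arrays, while *Rspo1*, an activator of Wnt signalling, measured 13.12 and 13.92 against 14.42 and 14.24 (difference 0.81).

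Fetal Leydig markers (9 of 11 kept) had means of 12.27 and 12.36 against 12.49 and 11.99, and *Ren1*, the renin gene, measured 14.17 and 13.99 against 15.20 and 14.68. Interstitial, endothelial, macrophage and smooth muscle markers had medians of 0.11, -0.09, 0.00 and 0.06 over 10, 13, 11 and 8 genes, with 0, 0, 1 and 0 at an unadjusted p under 0.05. The single gene was *Cx3cr1*, a chemokine receptor of macrophages, at 6.63 and 6.92 against 6.03 and 6.05. Erythroid markers (8 of 14 kept) had a median of 0.18, with 1 higher, *Slc4a1*, at 9.39 and 9.24 against 9.78 and 9.72. The beta-globin probes of *Hbb-bt*, which near-identical globin genes may share, gave higher values by 0.40 to 0.50. Y-linked *Ddx3y* differed by -0.18, *Uty* by 0.93 and *Kdm5d* by 0.55, and *Xist* was not above background on all 4 arrays, as in male tissue. The mean over the 4 X and Y linked genes kept was 9.22 and 9.45 against 9.62 and 9.81, without overlap. No marker was called.

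Probes above background in 1 genotype alone were outside the set described so far. On both Nanos2-/-_Tg+ arrays and neither Nanos2+/- array, 149 probes were above background, and 210 showed the opposite. For these a dim value under the lowest signal that counts as above background was raised to that signal, which gives a lower bound of the fold. Dim values over it were kept, so that some bounds, as for *Padi6*, equal the measured fold. The bound reached 2-fold in 48 higher and 57 lower probes, of which 9 and 6 passed limma with the filter on either genotype. These probes entered that fit only through the genotype in which they are bright, and arrays at the floor add no spread. The limma adjusted p-values of that fit are therefore not independent of the filter, do not support the differences and are left out below. *Foxf1*, a forkhead factor of mesenchyme, was at least 3.26-fold higher, with 3.19 and 3.43 against 5.35 and 5.51. *Slc22a14*, a transporter of the testis, was at least 2.80-fold higher, with 2.32 and 2.62 against 5.62 and 4.80. *Adcy10*, the soluble adenylyl cyclase, was at least 3.22-fold higher (5.41 against 3.25 in the mean).

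A few of these probes were dim on the Nanos2-/- arrays too. The unmatched probe A_51_P162805 stood at the floor on both Nanos2+/- and both Nanos2-/- arrays. In Nanos2-/-_Tg+ it measured 6.22 and 5.80, at least 4.87-fold higher. *Agtrap*, which binds the angiotensin receptor, measured 2.32 and 2.55 in Nanos2+/- and 2.47 and 2.32 in Nanos2-/-. In Nanos2-/-_Tg+ it measured 6.07 and 4.67, at least 3.13-fold higher than in Nanos2+/-. Among the lower genes the largest bounds of matched probes belonged to *Clca1* and *Padi6*, at 6.67 and 5.16-fold. Both varied widely between the Nanos2+/- arrays. Of the unmatched probes, A_52_P661942 measured 6.29 and 6.25 in Nanos2+/- and stood at the floor on the other 4 arrays, at least 5.57-fold lower.

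Genes near *Nanos2* on chromosome 7 held a larger share of low p-values than genes elsewhere. Positions were taken from RefSeq for build GRCm38.p6 and used only for distances, and the distance classes were chosen after the values had been seen. Of 43 genes kept within 1 Mb, 5 were higher and 8 lower at an unadjusted p under 0.05, together 30.2%, compared with 9.68% of 11485 genes on other chromosomes. The share was 7.41% of 27 genes between 1 and 5 Mb, 15.4% of 280 between 5 and 20 Mb and 13.4% of 665 farther away. Without overlap between genotypes were 48.8%, 51.9%, 40.4% and 38.2% in this order, and 37.5% on other chromosomes. Neighbouring genes are not independent, and these differences in share were not tested. None of the 43 was called, and the smallest limma adjusted p was 0.133. Unmatched probes were given no position, so the called probes A_51_P334979 and A_51_P235553 are outside all these counts. Whether either lies near *Nanos2* was not determined.

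Within this region *Ppm1n*, a protein phosphatase gene, measured 5.56 and 5.09 in Nanos2+/- and 7.45 and 6.56 in Nanos2-/-_Tg+ (difference 1.68). *Klc3*, a kinesin light chain of the sperm tail, measured 12.24 and 12.03 against 11.18 and 10.45 (difference -1.32). *Ercc2*, a helicase of TFIIH and DNA repair, measured 7.68 and 8.28 against 6.93 and 7.07 (difference -0.98), and *Foxa3*, a forkhead factor, differed by -0.88. *Ceacam19*, *Dmpk* and *Apoc4* were higher by 1.21, 0.92 and 0.90. Against Nanos2-/-, which carries the same null allele without the transgene, these 13 genes differed by -0.26 to 0.36.

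**Figure D5:**
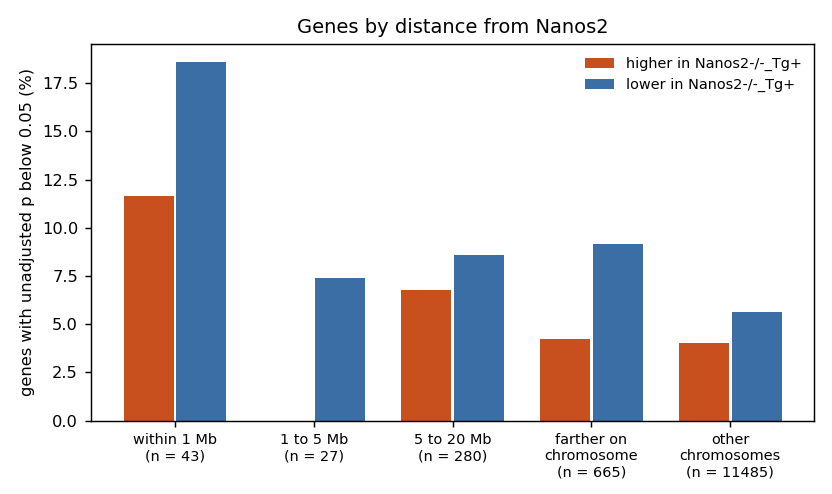
Share of genes (y axis, percent) at an unadjusted limma p under 0.05 between Nanos2-/-_Tg+ and Nanos2+/-, higher in orange and lower in blue, by distance from *Nanos2* (x axis, number of genes in parentheses). Within 1 Mb 5 of 43 genes were higher and 8 lower, and between 1 and 5 Mb 0 of 27 were higher and 2 lower.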

How the data were processed

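Total RNA of E14.5 male gonads had been labelled with Cy3 and hybridized to Agilent whole mouse genome arrays, 1 sample per array. The deposited values are the background-subtracted spot intensity that the authors' scanner software wrote (Agilent Feature Extraction 9.5 per the submitters' processing notes). The methods state that the authors set values under 5 to 5 and scaled arrays to the 50th percentile. The deposited value table holds the same intensity within 0.497%. The 45018 spots of each array included 1639 controls, which were left out with outlier spots. Here signals were scaled to a common median, raised to at least 5, turned into log2 of the deposited intensity and averaged per probe. Depth has no equivalent on arrays, and the number of arrays limits the precision.

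Genotypes were taken from the sample labels. Each probe was fitted with limma 3.58.1 (lmFit, eBayes) in R 4.3.3 with 1 mean per genotype over 6 arrays, which left 3 residual degrees of freedom, and p-values were adjusted by the Benjamini-Hochberg method over all 25085 probes kept. Tables and figures were made in Python 3.11.15. The procedure was tested on simulated data, where the call rule found 8 of 67 changes of 2-fold. It found 59 of 67 changes of 4-fold and 66 of 66 of 8-fold. A count of 0 called therefore does not show that 2-fold changes were absent. Gene names came from RefSeq through the accession of a probe, and 23374 of 41174 probes matched. A gene is represented by its brightest probe over the 4 arrays. Named were the called probes, *Nanos2*, genes the study names, the 15 genes with the largest positive and negative differences (p under 0.05 unadjusted, no overlap, brighter mean at or above the median), list members at p under 0.05 or with the 4 largest differences, genes with all of several probes 2-fold apart, and genes within 1 Mb of *Nanos2* at p under 0.05. For probes dim in 1 genotype the 8 largest bounds in each direction were eligible. Further list members are named to fill in a pathway and were picked by role. *Nanos1*, *Pifo* and the unmatched dim probes were picked after their values were seen. The comparison, the gene lists and the marker lists were chosen with earlier results of these data known. Alternatives were other scalings, floors, filters, background corrections, arrays in the fit, the replicate number as a block, and an equal-variance t-test. Single genes withheld from the text are not reported here.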

Additional observations from a re-analysis of the deposited data

How the results depend on the processing

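The 4 calls between Nanos2-/-_Tg+ and Nanos2+/- depended on the arrays and settings of the fit. The count was 2 with the 75th percentile, 1 with normexp background correction and 1 with quantile normalization. It was 17 with an intensity trend, 38 with the filter on both arrays of at least 1 genotype and 118 with only the 4 arrays. The equal-variance t-test gave 137 without and 0 with adjustment. Leaving out 1 array gave 3 to 118 calls: 3 and 9 without Nanos2+/- replicates 1 and 2, 20 and 21 without Nanos2-/-_Tg+ replicates 1 and 2, and 118 without either Nanos2-/- array, where the fit has the residuals of the 4 arrays alone. All 4 calls were among those made without a Nanos2-/- or Nanos2-/-_Tg+ array, 2 were among the 3 and 1 was among the 9. Without a filter 4 other probes were called and all 4 calls were lost, A_51_P334979 at a limma adjusted p of 0.073. The other settings gave 3 to 5 calls. With a replicate block 215 probes were called, the 4 included. Deviations of same-numbered arrays correlated at 0.347, 0.285 and 0.391, but the labels do not say what a number shares. The slide as a random block could not be fitted: genotype already encodes the slide, so limma set its correlation to 0.

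Between Nanos2-/-_Tg+ and Nanos2-/- the 2 calls became 1 with the 75th percentile, 1 with all 6 arrays above background, 5 with the filter on either genotype, 0 without a filter, 1 with quantile normalization and 19 or 0 with the t-test, and 2 to 33 when 1 array was left out (33 and 4 without Nanos2-/- replicates 1 and 2, 13 and 6 without Nanos2-/-_Tg+ replicates 1 and 2). The replicate block left it at 2.

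With the probe of each gene kept, the direction was the same in every setting for 131 of 148 named probes and the medians of 5 of 23 lists (meiosis, motile cilium, epithelial junction, erythroid, X and Y linked). None of the 17 probes that turned was called. Other probes of the same gene gave -0.15 (*Acta2*), 0.044 and 0.23 (*Dnmt3a*), -0.78 (*Lyz2*), -0.029 (*Myocd*) and -0.003 (*Pdgfra*), and normexp gave 0.02 for *Fgf9* and 0.035 for *Pax8*. Leaving out 1 array gave -0.02 to 0.48 (*Aard*), -0.056 to 0.22 (*Acta2*), -0.22 to 0.092 (*Cyp26b1*), -0.021 to 0.92 (*Dazl*), -0.38 to 0.22 (*Des*), -0.31 to 0.77 (*Dppa3*), -0.062 to 0.001 (*Fgf9*), -0.17 to 2.76 (*Lefty1*), -1.47 to 0.75 (*Lhcgr*), -0.026 to 0.32 (*Myh11*), -0.22 to 0.79 (*Rhox5*), -0.57 to 0.23 (*Rhox6*), -0.62 to 0.22 (*Rhox9*), -0.04 to 0.97 (*Snrpn*), -1.27 to 0.11 (*Tcl1*) and -0.36 to 0.10 (*Wnt4*). The cause was not tested.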
